A study of Drosophila melanogaster with 12 samples.

Results

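The 10 genes that the Drosophila germarium uses to send and read bone morphogenetic protein (BMP) signals were followed through a polysome sequencing experiment: the ligands dpp and gbb, the receptors tkv, sax and put, the Smad proteins Mad, Med and Dad, the DNA-binding partner shn and the co-receptor dally. They were chosen by name, and 9 of the 10 were matched to a row of counts among 17023 genes. Med had no row that the annotation pairs with it and is not analysed here. All 9 passed the expression filter that left 10035 genes for testing, each with at least 11.3 CPM (counts scaled to a common library size) in every library. The 12 libraries came from whole ovaries of 3 genotypes, each with a polysome fraction and an input fraction in 2 replicates. In Nop60B RNAi ovaries an RNAi line driven in germ cells by nosGAL4 targeted Nop60B, the pseudouridine synthase of the H/ACA complex, and the ovaries were dissected soon after eclosion. The cyst control was nosGAL4-driven bam RNAi combined with hs-bam, a heat-inducible bam transgene that released cysts into differentiation when the females were heat-shocked. The germarial control (YWT) was young UAS-Dcr2;nosGAL4 females dissected soon after eclosion. Each lysate pooled the ovaries of many females, and a share of it was set aside as input before the rest was run on a sucrose gradient, so a polysome and an input library of the same number belong together. All 3 genotypes carried nosGAL4. The labels do not say whether the 2 replicates of a group were separate cultures, so the p-values measure the spread between these libraries. The cyst control females were also older at dissection, so heat shock, age and stage cannot be told apart there.

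The measured members lie at chr2L:2428372-2459823 (dpp, FBgn0000490), chr2R:23851562-23853247 (gbb, FBgn0024234), chr2L:5219000-5271384 (tkv, FBgn0003716), chr2R:7806484-7810067 (sax, FBgn0003317), chr3R:14619030-14625703 (put, FBgn0003169), chr2L:3146056-3159643 (Mad, FBgn0011648), chr2R:11159086-11217394 (shn, FBgn0003396), chr3R:17054007-17070408 (Dad, FBgn0020493) and chr3L:8827505-8891192 (dally, FBgn0263930) of dm6. tkv, put and Mad are read from the minus strand and the other 6 from the plus strand.

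In the ovary, cap cells at the tip of the germarium release the ligands Dpp and Gbb, which act over a very short distance on the germline stem cells that touch them. The ligand brings the type II receptor Punt to the type I receptors Thickveins and Saxophone, the type I receptor phosphorylates Mad, and Mad with Medea and Schnurri silences the differentiation gene bam. A daughter cell that leaves the cap cells loses the signal, turns bam on and divides into a cyst. Escort cells, follicle cells and the muscle sheath around the ovary also make BMP pathway components, and whole ovaries were sequenced, so fewer cells of a type and less RNA per cell cannot be told apart.

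The DNA element through which Mad, Medea and Schnurri silence bam is shown because bam is the readout of the pathway in stem cells and was itself measured in the same libraries. Windows of 300 bases, from 250 before to 50 after each annotated start, were read from the RefSeq release 6 assembly, and both strands were searched for the Smad and Schnurri silencer element, spelled GACGNCNNNNNGTCTG or with G as its second base, and for GCCGNCGC, a Mad site whose first letters resemble it. The bam silencer lies at chr3R:25245066-25245081, 28 bases past the start, on the strand opposite to bam. A Mad site lies at chr3R:25245169-25245176, 67 bases before the start, also on the opposite strand. Both are given 5′ to 3′ with the match in capitals and flanking bases in lower case.
bam silencer: atgcctGACGCCACGCTGTCTGcgaatt
bam Mad site: agggttGCCGTCGCacaaat
The silencer spelling was found in 9 of 13623 windows of coding genes (0.0661%) and the Mad site in 424 (3.11%). Neither spelling was found in the windows of the 9 members, which says only that these letters are not there.

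The shallowest library held 2780781 counts (cyst polysomes, replicate 1), the deepest 21626125, and the median was 13615213. The titles of both replicate 1 libraries of the cyst control lack the running number that the other 10 titles carry. Replicates correlated at r = 0.961 to 0.981 in the germarial control and at 0.897 to 0.969 in Nop60B RNAi (log2 CPM), but at 0.79 in the cyst control polysomes and 0.883 in its input. Nop60B itself was at 466.1 to 472.9 CPM in the polysomes and 445.9 to 461.6 CPM in the input of Nop60B RNAi ovaries, 505.9 to 560.7 and 335.5 to 747.6 CPM in the cyst control, and 1689 to 1906 and 1553 to 1776 CPM in the germarial control. It was thus lower than in the germarial control in both fractions, but overlapped with the cyst control in input. The summed level of 7 germline markers was 122.6 to 168.1 CPM over the 4 Nop60B RNAi libraries, 993.2 to 2641 CPM in the cyst control and 1850 to 3035 CPM in the germarial control. That of 7 muscle markers was 27500 to 34350 CPM in Nop60B RNAi, 19610 and 27880 CPM in replicate 1 of the cyst control, 3885 and 4337 CPM in its replicate 2, and 4840 to 5759 CPM in the germarial control. Hemocyte markers (7 genes) summed to 1577 to 3155 CPM in Nop60B RNAi, 529.8 to 964.9 CPM in the cyst control and 135.2 to 146.2 CPM in the germarial control. Of these 3 lists, 1 marker was at 0 in 1 library, the hemocyte gene He in replicate 1 of the cyst polysomes. Nop60B RNAi ovaries thus held a smaller share of germline RNA and a larger share of muscle and hemocyte RNA than the germarial control, and the 2 replicates of the cyst control differed from each other in muscle RNA. The part these differences play in the results was not tested.

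**Figure D1:**
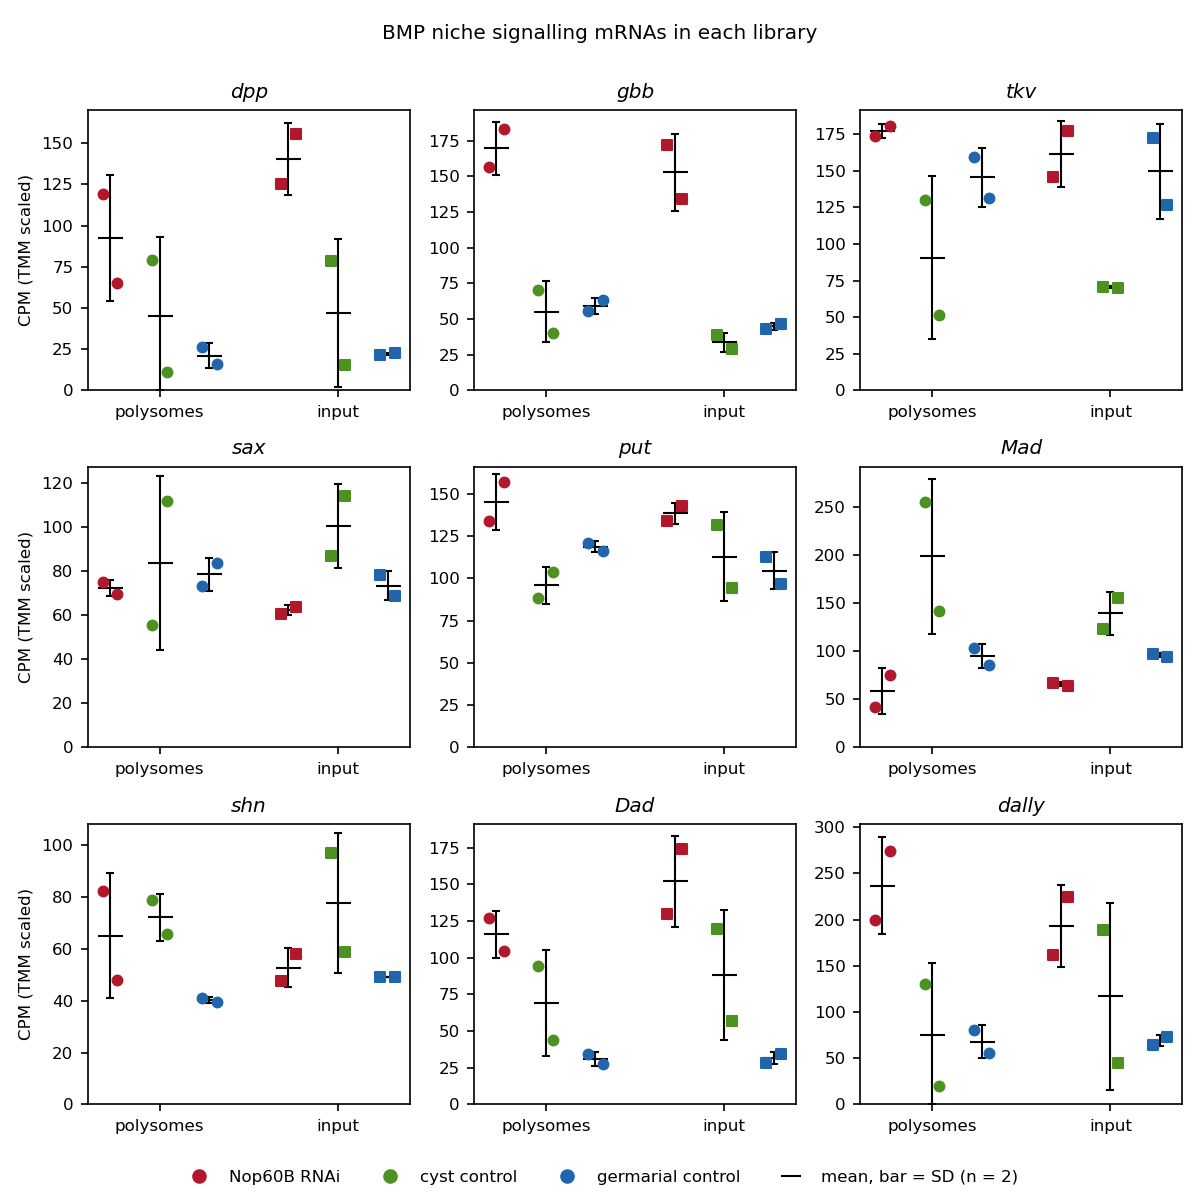
CPM of each measured BMP gene in every library, with a panel for each gene, circles for polysomes on the left and squares for input on the right, and Nop60B RNAi, cyst control and germarial control from left to right within each. The horizontal line is the mean and the bar the SD (n = 2), stopped at 0. gbb stands at 133.9 CPM or more in all 4 Nop60B RNAi libraries and at 70.1 CPM or less in all 8 control libraries.

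The ligands were tested first. gbb, which encodes the BMP5/7-type ligand Glass bottom boat, was higher in Nop60B RNAi ovaries than in either control, in polysomes and in input. In polysomes it had 156.4 and 182.9 CPM in Nop60B RNAi, 70.1 and 39.9 CPM in the cyst control, and 55.3 and 63.3 CPM in the germarial control. Input libraries gave 171.8 and 133.9 CPM in Nop60B RNAi, 38.5 and 28.7 CPM in the cyst control, and 43.2 and 46.5 CPM in the germarial control. The Nop60B RNAi libraries did not overlap with any control library in either fraction.

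Against the germarial control, gbb rose by 1.52 ± 0.37 in polysomes and 1.77 ± 0.38 in input (log2 fold change ± SE), which are 2.86-fold and 3.41-fold, with edgeR adjusted p of 0.0328 and 0.029. Over the cyst control it rose by 1.63 ± 0.38 in polysomes and 2.19 ± 0.38 in input (edgeR adjusted p = 0.0233 and 0.0118). gbb was the only measured member that passed in all 4 comparisons, and 0.947% of the 10035 genes were higher in all 4. Its changes kept their direction without any one library, but its calls did not hold without each. The calls relative to the germarial control were lost when any of the 8 Nop60B RNAi or germarial libraries was left out (edgeR adjusted p of 0.0709 to 0.206 in polysomes and 0.0565 to 0.303 in input). Relative to the cyst control the polysome call was lost without either germarial input library, either Nop60B RNAi input library or either Nop60B RNAi polysome library (adjusted p of 0.0533 to 0.107) and in a fit to the compared libraries alone (0.165), and the input call without either Nop60B RNAi input library (0.149 and 0.0706) or replicate 2 of the cyst input (0.067). Germline markers were lower and muscle markers higher in the same libraries, as given above. Terminal filament and cap cell markers (7 genes) summed to 314.5 and 523.3 CPM in Nop60B RNAi polysomes and 278.7 and 280.8 CPM in its input, 128.2 to 176.4 CPM in the cyst control, and 112.2 to 133.1 CPM in the germarial control. In each of the 4 comparisons of Nop60B RNAi with a control, 6 of the 7 markers had a positive log2 difference. The median of the list against the germarial control was 1.35 in polysomes and 1.42 in input (-0.08 and 0.02 over all genes). Against the cyst control it was 2.65 and 2.21 (-0.18 and -0.01 over all genes). In polysomes 2 markers passed as higher and 1 as lower than in the germarial control (5.38% and 3.26% of all genes). Against the cyst control 3 were higher and 1 lower (3.98% and 5.52%), and in input 0 passed against either control. upd1 was at 0 in both Nop60B RNAi polysome libraries and en in both cyst control inputs. The part of terminal filament and cap cells in the gbb and dpp differences was not tested.

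dpp encodes Decapentaplegic, the BMP2/4-type ligand made by cap cells and the main stem cell maintenance signal of the niche. In polysomes it had 119.4 and 65.4 CPM in Nop60B RNAi, 79.1 and 11.3 CPM in the cyst control, and 26.5 and 15.9 CPM in the germarial control. The input values were 125.0 and 155.7 CPM in Nop60B RNAi, 78.8 and 15.4 CPM in the cyst control, and 21.5 and 22.5 CPM in the germarial control. All 4 Nop60B RNAi values lay above the 4 germarial values, while replicate 1 of the cyst control lay near Nop60B RNAi and its replicate 2 below the germarial control.

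The dpp difference from the germarial control was the largest point estimate among the measured members, 2.13 ± 0.88 in polysomes and 2.67 ± 0.91 in input on the log2 scale, but it did not pass (edgeR adjusted p = 0.148 and 0.127). Its 95% intervals ran from 0.18 to 4.07 and from 0.68 to 4.66. With all 12 libraries but no filter on low counts, dpp passed in polysomes and input (edgeR adjusted p = 0.00904 and 0.000631), where 11.0% and 7.69% of genes did. DESeq2 called it in input but not in polysomes (adjusted p = 0.0252 in input), with 16.8% of the genes it gave an adjusted p there. In a fit to the 4 compared libraries alone, dpp passed, with edgeR adjusted p of 0.00761 in polysomes and 6.28e-09 in input, but that fit called 25.2% and 54.7% of all genes. It also passed without either cyst polysome library, with adjusted p of 0.03 and 0.0307 in polysomes and 0.0172 and 0.0167 in input, in fits that called 28.4% and 28.7% of all genes in polysomes and 19.3% and 19.2% in input. Replicates 1 and 2 of the cyst control, which enter the fit over all libraries, differed 6.99-fold in polysomes and 5.13-fold in input for dpp. From the cyst control, dpp differed by 1.05 ± 0.86 and 1.58 ± 0.87 (adjusted p = 0.429 and 0.331), and by 3.03 in polysomes without replicate 1 of the cyst polysomes (adjusted p = 0.0348).

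None of the receptors passed in the 4 comparisons of Nop60B RNAi with a control. tkv, the type I receptor that carries the Dpp signal, had 173.5 and 180.3 CPM in Nop60B RNAi polysomes, 129.8 and 51.4 CPM in cyst control polysomes, and 159.4 and 131.3 CPM in germarial control polysomes. Its inputs had 145.4 and 177.3 CPM in Nop60B RNAi, 70.9 and 69.9 CPM in the cyst control, and 172.5 and 126.5 CPM in the germarial control. The Nop60B RNAi and germarial inputs overlapped, and both cyst control inputs lay below all other inputs. Its log2 difference from the germarial control was 0.28 in polysomes (95% interval -0.60 to 1.17) and 0.11 in input (-0.78 to 1.00), and from the cyst control 0.98 and 1.20 (edgeR adjusted p = 0.147 and 0.121). DESeq2 called tkv against the cyst control in input (adjusted p = 0.043), with 17.4% of the genes it gave an adjusted p. Relative to the cyst control tkv passed in input without either cyst polysome library (adjusted p = 0.00804 and 0.00725) and in polysomes without replicate 1 of them (0.00544), where 21.0%, 20.7% and 20.3% of all genes did. tkv shares exon sequence with TpnC25D and a pseudogene on the opposite strand, and the strand setting of the counting is not given in the sources used here, so its counts are uncertain to that extent.

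put, the type II receptor that activates both type I receptors, had 133.7 and 157.2 CPM in Nop60B RNAi polysomes, 88.2 and 103.6 CPM in cyst control polysomes, and 121.2 and 116.4 CPM in germarial control polysomes. In input it had 134.2 and 142.9 CPM in Nop60B RNAi, 131.5 and 94.3 CPM in the cyst control, and 112.5 and 96.7 CPM in the germarial control. Every Nop60B RNAi value was above the controls of its fraction, by a small margin. The log2 difference from the germarial control was 0.29 in polysomes (95% interval -0.36 to 0.95) and 0.41 in input (-0.25 to 1.06), and did not pass (edgeR adjusted p = 0.556 and 0.507).

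sax, the type I receptor that favours Gbb, had 74.8 and 69.7 CPM in Nop60B RNAi polysomes, 55.6 and 111.6 CPM in cyst control polysomes, and 73.2 and 83.7 CPM in germarial control polysomes. sax had input levels of 60.5 and 63.7 CPM in Nop60B RNAi, 86.8 and 114.0 CPM in the cyst control, and 78.1 and 68.7 CPM in the germarial control. The polysome libraries overlapped, while both Nop60B RNAi inputs lay below the 4 control inputs. The log2 difference from the germarial control was -0.12 (95% interval -0.96 to 0.73) in polysomes and -0.24 (-1.09 to 0.61) in input, with edgeR adjusted p of 0.887 and 0.811. A 2-fold difference of sax in either direction lay outside the polysome interval, and a 2-fold higher level outside the input interval.

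**Figure D2:**
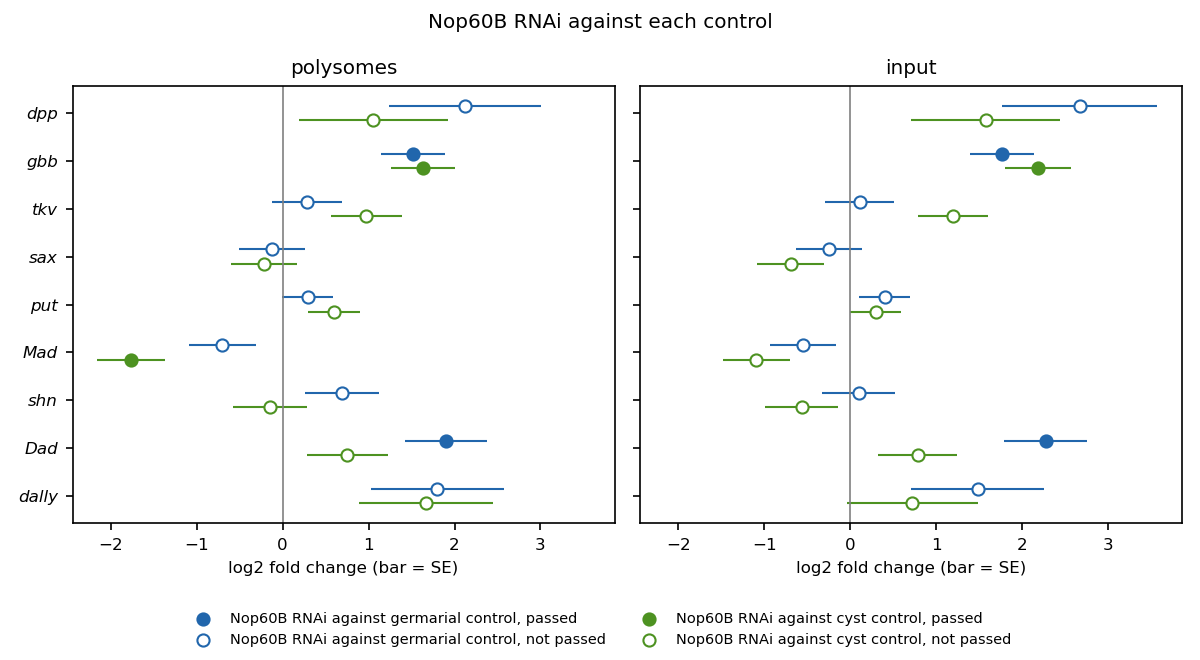
Log2 fold change of Nop60B RNAi over each control for the 9 measured BMP genes, in polysomes (left) and input (right), with the SE of the edgeR fit as the bar. Filled points passed at an adjusted p under 0.05: gbb in all 4 comparisons, Dad against the germarial control in both fractions, and Mad, lower, against the cyst control in polysomes.

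Mad, the receptor-activated Smad that carries the signal into the nucleus, was the measured member with the lowest point estimates. In polysomes it had 41.5 and 75.2 CPM in Nop60B RNAi, 255.5 and 141.4 CPM in the cyst control, and 103.6 and 86.0 CPM in the germarial control. The Mad inputs stood at 67.0 and 64.1 CPM in Nop60B RNAi, 123.5 and 155.3 CPM in the cyst control, and 97.0 and 94.3 CPM in the germarial control. In both fractions the 3 genotypes stood in the same order without overlap, with the cyst control highest and Nop60B RNAi lowest. Mad fell by 1.76 ± 0.40 on the log2 scale against the cyst control in polysomes, a 3.39-fold difference (edgeR adjusted p = 0.0216). Without replicate 1 of the Nop60B RNAi polysomes that value was -1.37 and did not pass. Nor did it pass in a fit to the compared libraries alone (edgeR adjusted p = 0.0987). In both of these fits fewer of all tested genes passed than in the fit to all libraries. Mad did not pass against the cyst control in input (-1.09 ± 0.39, edgeR adjusted p = 0.137, or 0.0278 and 0.0289 without either cyst polysome library), nor against the germarial control (-0.70 in polysomes and -0.55 in input, adjusted p = 0.254 and 0.488). The summed heat shock mRNAs (7 genes, of which Hsp22 had no counts in any library) moved with the same groups. They summed to 2654 to 4013 CPM in Nop60B RNAi polysomes, 18400 to 55230 CPM in cyst control polysomes and 4540 to 5683 CPM in germarial control polysomes. Vitellogenic stage markers (7 genes) summed to 201.8 and 609.6 CPM in Nop60B RNAi polysomes, 3138 and 6865 CPM in cyst control polysomes, and 406.9 and 569.3 CPM in germarial control polysomes. The part of either in the Mad difference was not tested.

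shn, a zinc-finger protein that joins Mad and Medea to make their complex a repressor, had 82.3 and 48.0 CPM in Nop60B RNAi polysomes, 78.7 and 65.8 CPM in cyst control polysomes, and 41.1 and 39.6 CPM in germarial control polysomes. Its input levels were 47.5 and 58.0 CPM in Nop60B RNAi, 97.0 and 58.7 CPM in the cyst control, and 49.2 and 49.0 CPM in the germarial control. shn did not pass in any of the 4 comparisons, with log2 differences from the germarial control of 0.69 in polysomes and 0.10 in input, and from the cyst control of -0.15 and -0.56. It was also the only measured member whose coding sequence holds a run of 5 or more glutamine codons, 9 in a row, a feature of 862 of 9315 tested coding genes (9.25%).

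Dad encodes the inhibitory Smad, which BMP signalling turns on and which then dampens the pathway, so its mRNA is widely used as a reporter of signalling. In polysomes Dad had 127.2 and 104.4 CPM in Nop60B RNAi, 94.5 and 43.7 CPM in the cyst control, and 34.5 and 27.7 CPM in the germarial control. In input it had 129.7 and 174.0 CPM in Nop60B RNAi, 119.6 and 56.8 CPM in the cyst control, and 28.5 and 34.2 CPM in the germarial control. All 4 Nop60B RNAi libraries lay above the 4 germarial libraries, with the cyst control in between and replicate 1 of it closest to Nop60B RNAi.

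Against the germarial control Dad rose by 1.90 ± 0.48 in polysomes and 2.28 ± 0.49 in input, which are 3.72-fold and 4.84-fold (edgeR adjusted p = 0.0365 and 0.0295). As with gbb, both calls were lost when any of the 8 Nop60B RNAi or germarial libraries was left out. Fewer of all tested genes passed in those fits as well. The log2 values stayed between 1.71 and 2.06 in polysomes and between 2.05 and 2.47 in input. From the cyst control Dad differed by 0.75 ± 0.47 and 0.79 ± 0.47 and did not pass (adjusted p = 0.291 and 0.366). Hemocyte markers stood in the same order as Dad, with sums of 2362 and 3155 CPM in Nop60B RNAi polysomes, 529.8 and 752 CPM in cyst control polysomes and 139 and 146.2 CPM in germarial control polysomes. Their part in the Dad difference was not tested.

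dally, a glypican whose heparan sulfate chains hold Dpp near the cap cells, had 200.0 and 273.8 CPM in Nop60B RNAi polysomes, 130.7 and 20.3 CPM in cyst control polysomes, and 80.3 and 55.6 CPM in germarial control polysomes. The dally inputs had 161.6 and 224.9 CPM in Nop60B RNAi, 188.8 and 45.1 CPM in the cyst control, and 64.6 and 73.4 CPM in the germarial control. Nop60B RNAi was above the germarial control in both fractions without overlap. The cyst control lay below Nop60B RNAi in polysomes and reached into its range in input, and its replicate 2 lay below the germarial control in both fractions. The log2 difference from the germarial control was 1.80 ± 0.78 in polysomes and 1.49 ± 0.77 in input and did not pass (edgeR adjusted p = 0.16 and 0.318). With no filter on low counts it passed (edgeR adjusted p = 0.0032 and 0.0238), where 11.0% and 7.69% of genes did. The 2 cyst control replicates differed 6.45-fold in polysomes and 4.19-fold in input for dally, and in a fit to the 4 compared libraries alone it passed against the germarial control in polysomes and input (edgeR adjusted p = 0.00341 and 3.48e-06), where 25.2% and 54.7% of all genes did. Without either cyst polysome library it passed in polysomes (0.0293 and 0.0307), and relative to the cyst control without replicate 1 of them (log2 difference 3.55, adjusted p = 0.0108). Another coding gene, CG32026, lies within dally on the same strand but outside its exons.

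Counted together, 2 of the 9 measured members passed as higher against the germarial control in polysomes (gbb and Dad), where 5.38% of all tested genes passed as higher. The same 2 members passed in input, where 2.93% did. No member was lower than in the germarial control, where 3.26% of genes were in polysomes and 1.23% in input. Compared with the cyst control, 1 member was higher (gbb) and 1 lower (Mad) in polysomes, where 3.98% of genes were higher and 5.52% lower. In input 1 was higher (gbb) and 0 lower, where 2.18% and 2.32% of genes were. The median log2 difference of the members from the germarial control was 0.69 in polysomes and 0.41 in input, and that of all tested genes -0.08 and 0.02. From the cyst control it was 0.75 in polysomes and 0.73 in input, and that of all tested genes -0.18 and -0.01. By the criteria of the study's methods, a 2-fold difference and an unadjusted p under 0.05, 4 members were higher against the germarial control in polysomes (gbb, Dad, dpp and dally) and 3 in input (gbb, Dad and dpp), while 14.1% and 11.5% of all tested genes were higher by them. Counted by libraries alone, 7 members had both Nop60B RNAi libraries above and 1 had both below those of the germarial control in polysomes (28.4% and 34.6% of all genes), and 5 had both above and 2 both below those of the germarial control in input (39.5% and 38.0% of all genes). Likewise 5 had both above and 1 both below those of the cyst control in polysomes (21.3% and 20.6% of all genes), and 5 had both above and 3 both below those of the cyst control in input (33.0% and 30.0% of all genes).

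The 2 controls were also compared with each other, to see how far these mRNAs varied between ovaries without Nop60B RNAi. No member passed between the cyst and germarial controls with edgeR, in polysomes or in input, where 4.85% and 4.06% of genes passed. Unadjusted p-values were under 0.05 for 2 members in each fraction, where 23.3% of genes in polysomes and 19.6% in input were, Mad (log2 difference 1.06) and Dad (1.14) in polysomes and tkv (-1.09) and Dad (1.49) in input, and DESeq2 called 0 members in polysomes and 1 in input, where it called 20.4% and 16.1% of the genes it gave an adjusted p. Without replicate 2 of the cyst polysomes edgeR called Mad and Dad in polysomes (adjusted p = 0.0103 and 0.0142), where 42.2% of genes passed, and without replicate 1 tkv (0.0225), where 7.69% did. In input tkv and Dad passed without either cyst polysome library (0.0108 to 0.0183), where 21.0% and 20.8% of genes did. gbb differed by -0.12 ± 0.37 in polysomes and -0.42 ± 0.37 in input between the 2 controls. These comparisons share their control libraries with those of Nop60B RNAi. The directions for dally and dpp rested on 1 replicate. For dpp, the log2 differences of 1.07 in polysomes and 1.09 in input reached -0.90 and -0.52 in other fits. Its sign changed in 2 of 20 other fits in each fraction. Without replicate 1 of the cyst control in both fractions, dally was 1.75 lower in cyst control than in germarial control polysomes on the log2 scale (edgeR adjusted p = 0.00782), against a value of 0.13 with it.

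**Figure D3:**
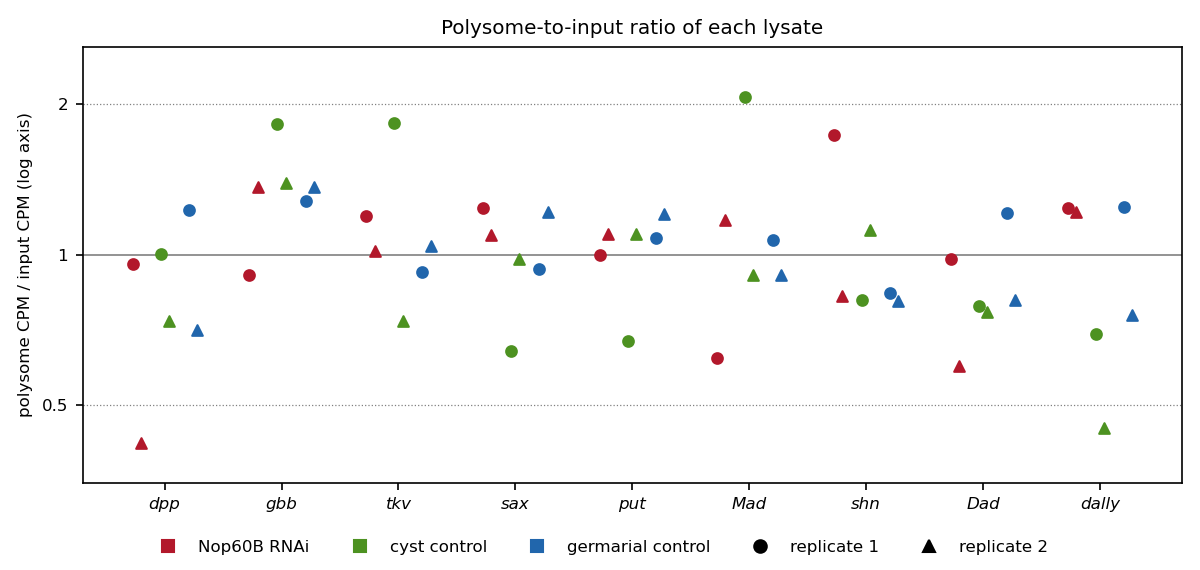
Ratio of polysome CPM to input CPM (log axis) for each measured BMP gene in each lysate, coloured by genotype, with a circle for replicate 1 and a triangle for replicate 2. Dotted lines mark 2-fold, and 51 of the 54 ratios lie between them.

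Polysome and input levels of the same lysate were then set against each other. A ratio above 1 means a higher scaled level (CPM with TMM) in polysomes than in input, which can differ from the share of raw counts. The ratio was between 0.42 and 2.07 over 54 pairs of member and lysate, with a median of 1.00, and 51 of the 54 lay within 2-fold. Outside that range were dpp in replicate 2 of Nop60B RNAi (0.42), dally in replicate 2 of the cyst control (0.449) and Mad in replicate 1 of the cyst control (2.07). In each of the 3 cases the other replicate was within 2-fold, at 0.956, 0.692 and 0.911. Median ratios over the members were 1.06 in Nop60B RNAi, 0.861 in the cyst control and 1.05 in the germarial control.

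The gbb ratio was above 1 in 5 of 6 lysates, at 0.91 and 1.37 in Nop60B RNAi, 1.82 and 1.39 in the cyst control, and 1.28 and 1.36 in the germarial control. The Dad ratio was below 1 in 5 of 6, at 0.981 and 0.60 in Nop60B RNAi, 0.79 and 0.768 in the cyst control, and 1.21 and 0.81 in the germarial control. No member differed between polysomes and input in any genotype with edgeR, and no member's ratio differed between Nop60B RNAi and either control. This fit, which also gave the intervals below, did not pair the 2 libraries of a lysate. With the lysate as a block no member passed either, where 0.00% to 0.00997% of genes did. Without that block edgeR called 0.00% of the 10035 genes at an adjusted p under 0.05 in these 5 comparisons. No member had an unadjusted p under 0.05 in them or was called by DESeq2. Over all genes, 152 to 938 per comparison had an unadjusted p under 0.05 and DESeq2 called 6 to 216. Without replicate 2 of the cyst polysomes, gbb and tkv passed as higher in polysomes than in input of the cyst control (log2 1.04 and 0.86, edgeR adjusted p = 0.0302 and 0.0476), where 29.9% of all genes passed. The change of the gbb ratio in Nop60B RNAi relative to the germarial control was -0.25 on the log2 scale (95% interval -1.39 to 0.88), that of Dad -0.38 (-1.82 to 1.06) and that of dpp -0.55 ± 1.20 (SE). A 2-fold shift of gbb into polysomes lay outside its interval. A 2-fold shift of gbb out of polysomes, or of Dad and dpp in either direction, lay within 95% intervals and was not detectable here.

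Levels were also compared between genes, as CPM per kilobase of annotated exon. In Nop60B RNAi the order began with gbb at 100.6 ± 11.1 in polysomes and 90.7 ± 15.9 in input (mean ± SD, n = 2 each) and dally at 52.8 ± 11.7 and 43.1 ± 9.98, which did not overlap with gbb. In cyst control polysomes Mad came first at 58.2 ± 23.7, followed by gbb at 32.6 ± 12.7, and these overlapped within their SD. In the germarial control gbb led in polysomes at 35.2 ± 3.34 and tkv in input at 33.7 ± 7.34, each within its SD of the next gene. shn was lowest or next to lowest in all 6 groups, between 3.67 and 7.08 CPM per kilobase, and in the germarial control dpp was next to it at 4.06 ± 1.44 in polysomes and 4.22 ± 0.13 in input. In Nop60B RNAi dpp stood at 17.7 ± 7.33 in polysomes and 26.9 ± 4.17 in input, close to sax (25.2 ± 1.28 and 21.7 ± 0.79) and above Mad in input (19.2 ± 0.60).

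**Figure D4:**
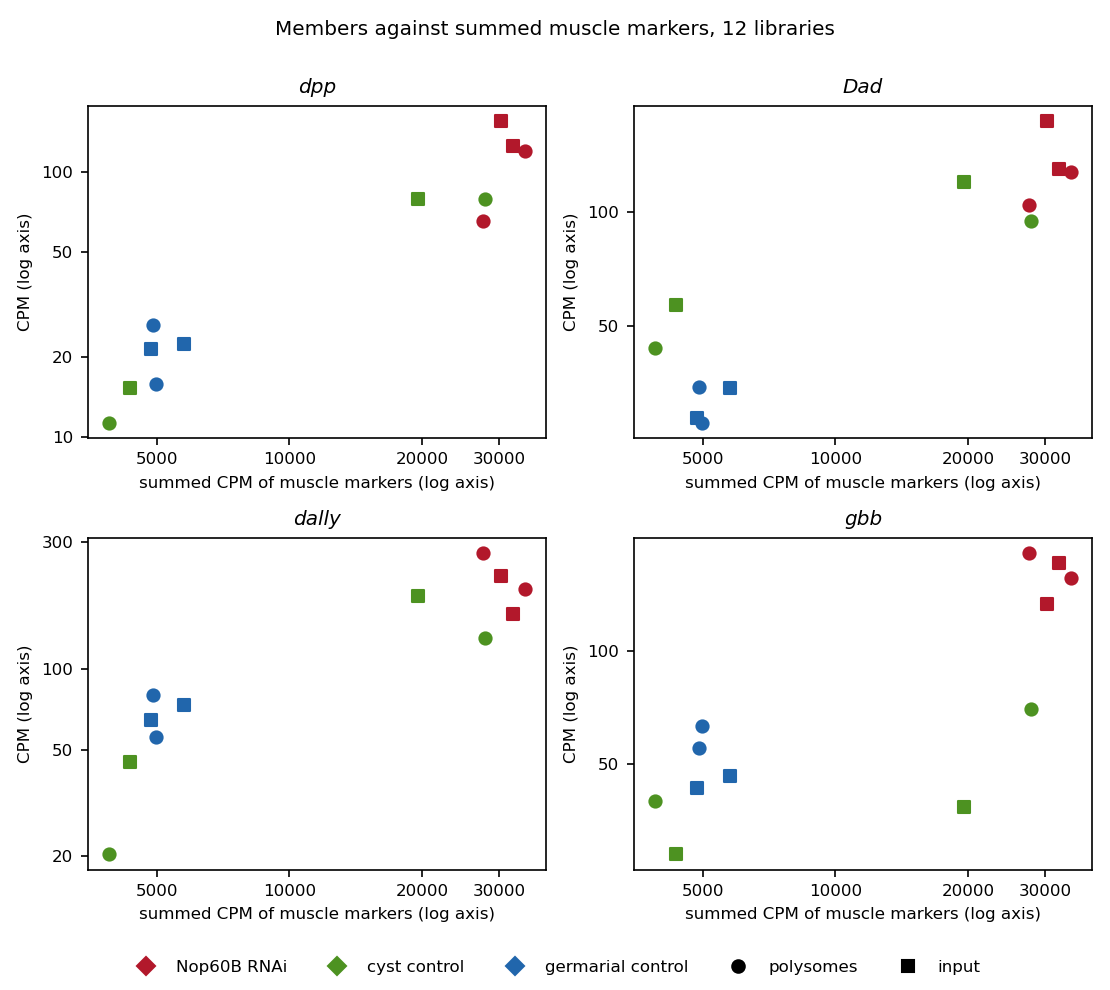
CPM of dpp, Dad, dally and gbb against the summed CPM of 7 muscle markers in the 12 libraries (both axes log, circles polysomes, squares input). At 27880 and 19610 CPM of muscle markers, the polysome and input libraries of replicate 1 of the cyst control had 79.1 and 78.8 CPM of dpp and 70.1 and 38.5 CPM of gbb.

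The members differed in how far apart the 2 replicates of the cyst control stood. Replicate 1 over replicate 2, muscle markers stood at 7.18-fold in polysomes and 4.52-fold in input, dpp at 6.99-fold and 5.13-fold, dally at 6.45-fold and 4.19-fold, and Dad at 2.17-fold and 2.1-fold. gbb stood at 1.76-fold and 1.34-fold, shn at 1.20-fold and 1.65-fold, and sax ran the other way, at 0.498-fold and 0.761-fold. Escort cell markers (5 genes) differed 8.52-fold and 2.74-fold between the same replicates and follicle cell markers (7 genes) 7.17-fold and 3.47-fold. The summed markers of terminal filament and cap cells, the cells that make Dpp in the niche, differed 1.38-fold and 1.08-fold between the same replicates. Their sum, though not every marker, was higher in Nop60B RNAi, as given above. The escort cell sum was also higher in Nop60B RNAi than in the germarial control, at 1854 to 2296 CPM in the 4 Nop60B RNAi libraries and 657.1 to 741.8 CPM in the germarial control. In the cyst control it was 3958 CPM in polysomes and 2445 CPM in input of replicate 1, above every Nop60B RNAi library. In replicate 2 it was 464.5 and 893 CPM. The fold values of this paragraph are 1 library over another, with no test, and the part of any cell type in the member levels was not tested.

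Genes with the pattern most like each member across the 12 libraries were ranked by Pearson's r of log2 CPM among 6987 genes with a mean of at least 10 CPM. The points share genotypes, lysates and depth, so these r values are a description. Closest to dpp were Nep3 (r = 0.985), lncRNA:CR43264 (0.982) and Stacl (0.981), and closest to Dad were Ca-Ma2d (0.987), sals (0.986) and Irc (0.976). Closest to gbb were CG1092 and CG6847 (0.982 each) and regucalcin (0.976). dally was nearest to vig, beat-IIIc (0.966 each) and CG6329 (0.963). Among the receptors, tkv was nearest to Fkbp14 (0.957), Ugt317A1 (0.941) and eya (0.93), sax to brun (0.976), CG8478 (0.967) and Acf (0.966), and put to Fibp (0.931), Spn31A (0.926) and mtg (0.919). Mad was nearest to CG17328 (0.963), Gasz (0.949) and lic (0.948), and shn to scrib (0.923), mask (0.919) and puf (0.904). No member was among the 3 nearest genes of another.

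**Figure D5:**
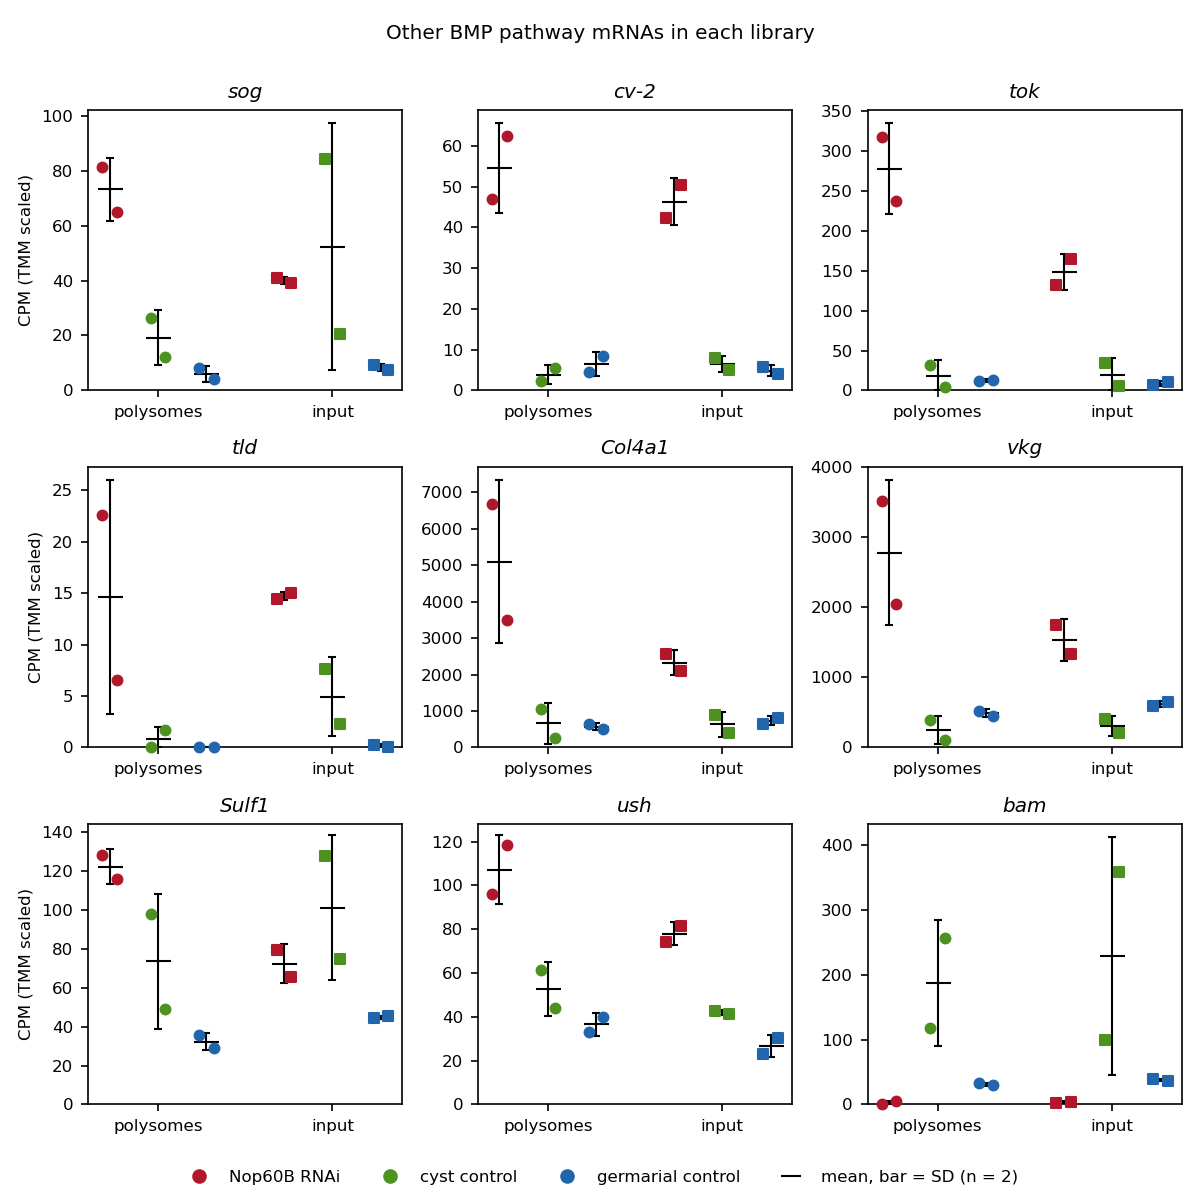
CPM of 8 other BMP pathway genes and of bam in every library, with circles for polysomes on the left and squares for input on the right, and Nop60B RNAi, cyst control and germarial control from left to right within each. Lines are means and bars SD (n = 2), stopped at 0. In polysomes the 8 genes sit higher in both Nop60B RNAi libraries than in both germarial control libraries, and bam sits lower.

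Of 51 other genes of the pathway, 45 passed the filter. In polysomes 8 of the 45 were higher in Nop60B RNAi than in the germarial control and 0 lower, where 5.38% and 3.26% of all genes were, and in input 2 were higher (tok and cv-2) and 0 lower, where 2.93% and 1.23% of all genes were. Relative to the cyst control 4 were higher in polysomes (Col4a1, vkg, tok and cv-2) and 1 in input (vkg), and 2 were lower in each fraction (bam and nos), where 3.98% and 2.18% of all genes were higher and 5.52% and 2.32% lower. Of the 11 tested extracellular modulators, 6 were higher against the germarial control in polysomes, and their median log2 difference was 2.52 against -0.08 over all genes. The other 2 of the 8 were Sulf1, which removes sulfate groups from heparan sulfate, and ush, a target gene of Dpp in other tissues. In polysomes fewer of all tested genes passed against the germarial control without any single Nop60B RNAi or germarial library. How these 8 genes fared in such fits is not given here.

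The extracellular modulators that passed shape how far BMP ligands travel and how much of them is free. sog encodes Short gastrulation, the Chordin-type protein that binds ligand in the extracellular space; it had 81.3 and 65.0 CPM in Nop60B RNAi polysomes, against 8.08 and 3.98 CPM in germarial control polysomes (log2 difference 3.60 ± 0.79, edgeR adjusted p = 0.0225). tok encodes Tolloid-related, a protease that cleaves Sog; it had 318.4 and 237.8 CPM in Nop60B RNAi polysomes, against 11.4 and 13.4 CPM in germarial control polysomes (4.49 ± 0.97, adjusted p = 0.0217). Its sister protease gene tld had 366 and 108 counts in Nop60B RNAi polysomes and 0 in both germarial control polysome libraries, at least 96.1-fold higher with 3 counts per library as the floor. cv-2 encodes Crossveinless 2, which binds BMPs at the cell surface. It had 46.8 and 62.4 CPM in Nop60B RNAi polysomes, against 4.42 and 8.56 CPM in germarial control polysomes (log2 difference 3.07 ± 0.76, edgeR adjusted p = 0.0337). In cyst control polysomes sog had 26.2 and 12.1 CPM, tok 32.1 and 4.76, tld 0 and 1.68, and cv-2 2.26 and 5.46. The sog inputs of Nop60B RNAi (41.0 and 39.1 CPM) and the cyst control (84.2 and 20.6 CPM) overlapped. Inputs of tok, tld and cv-2 were higher in Nop60B RNAi than in the cyst control.

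The 2 type IV collagen chains, which bind Dpp in the basement membrane, were also higher. Col4a1 had 6678 and 3509 CPM in Nop60B RNAi polysomes, 1056 and 263.1 CPM in cyst control polysomes, and 630.2 and 503.6 CPM in germarial control polysomes. vkg had 3515 and 2052 CPM in Nop60B RNAi polysomes, 394.8 and 105.8 CPM in cyst control polysomes, and 526.4 and 445.3 CPM in germarial control polysomes. Both passed in polysomes over the germarial control (log2 differences of 3.17 ± 0.65 and 2.52 ± 0.59, edgeR adjusted p = 0.018 and 0.0277) and over the cyst control (2.95 ± 0.65 and 3.48 ± 0.61, adjusted p = 0.0195 and 0.00794). Hemocytes also make both collagens, and the hemocyte markers given above were higher in the same libraries. Their part was not tested.

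bam, the gene that the pathway silences in stem cells and whose element is printed above, was lowest in Nop60B RNAi. In polysomes it had 0.0619 and 4.52 CPM in Nop60B RNAi, 118.0 and 256.3 CPM in the cyst control, and 32.4 and 29.6 CPM in the germarial control. In input it had 2.20 and 4.15 CPM in Nop60B RNAi, 98.7 and 358.2 CPM in the cyst control, and 39.0 and 36.4 CPM in the germarial control. The Nop60B RNAi libraries lay below every control library. Relative to the cyst control, which carries the hs-bam transgene and bam RNAi, its log2 differences were -6.35 ± 1.27 in polysomes and -6.16 ± 1.26 in input and passed (edgeR adjusted p = 0.0134 and 0.0227). Against the germarial control the values were -3.75 ± 1.13 and -3.56 ± 1.12 and did not pass (adjusted p = 0.065 and 0.105). Germline markers were lower in the same libraries, at 122.6 to 168.1 CPM in sum in Nop60B RNAi against 993.2 CPM or more in every control library, and their part in the bam difference was not tested.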

How the data were processed

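Single-end reads of poly(A)-selected ovary RNA were mapped to dm6 by the authors, who deposited unnormalized read counts for each gene, 1 table per library; HISAT2 2.1.0 and featureCounts 1.4.6 are named in the submitters' processing notes. The strand setting and the treatment of multiply aligned reads are not given in the sources used here. Names and positions came from Ensembl release 115, which lists 16647 of the 17023 genes. Counts were analysed in R 4.3.3 with edgeR 4.0.16 (filterByExpr, TMM, quasi-likelihood test, 1 mean per group, all 12 libraries), and p-values were adjusted by Benjamini-Hochberg over 10035 genes. A gene passed at an adjusted p under 0.05. The methods name RIVET, whose settings were not repeated. Alternatives were no filter, other scaling, DESeq2 1.42.0, a replicate block, the compared libraries alone, and leaving out libraries. Intervals are 95% intervals of the edgeR fit. No replicate libraries held identical values. With 2 libraries per group no permutation of libraries can reach a p of 0.05. Reads carried no molecular identifiers, so the floor of 3 counts covers counting error only. The fit was tested on simulated data in which only a small part of the genes was changed. It called very few of the changed genes after adjustment, though most of the larger changes had an unadjusted p under 0.05. Direction was scored only among the few called after adjustment, so it says little about the direction of other genes. Members and lists were chosen with earlier results of these data known. Named were all members, bam, up to 12 pathway genes with the smallest p among those passing against the germarial control in polysomes, and the 3 genes most like each member. Of the markers, vas, wg, br and wupA had no matching row and were not used here. Whether polysome and input libraries of a lysate deviate together was checked by correlating their deviations from the group mean (r = -0.000803 in Nop60B RNAi, 0.286 in the cyst control and 0.0362 in the germarial control).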

Additional observations from a re-analysis of the deposited data

How the results depend on the processing

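With 2 libraries per group, most calls were close to the threshold. Over 1980 alternative values of the 9 members in 11 comparisons, 1863 kept their side of the threshold and, where called, their direction, 44 lost a call, 72 gained one and 1 was called in the opposite direction; 88 changed sign. The value called in the opposite direction was dally, cyst control against germarial control in polysomes, at -1.75 without both libraries of replicate 1 of the cyst control. The count of members that passed in Nop60B RNAi against the germarial control was 2 in polysomes and 2 in input. It was 4 and 4 without a filter on low counts (11.0% and 7.69% of all genes called). In a fit to the compared libraries alone it was 4 and 6 (25.2% and 54.7%). Relative to the cyst control the count of 2 in polysomes became 0 with the compared libraries alone (4.45%). The count of 1 in input there became 2 with DESeq2 (17.4%). Between the cyst and germarial controls the count of 0 in input became 1 with library totals as the only scaling (4.95%) and 1 with DESeq2 (16.1%). Fits without single libraries leave 1 library in a group. In some of them all calls of Nop60B RNAi against a control were lost, and in others more members passed. Some members also passed in such fits between the controls, and for polysomes against input in the cyst control. The share of all genes called moved widely in these fits as well. The alternatives differ from the main fit in libraries, genes, scaling or method, and why the counts changed was not tested.

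After the data were seen, both cyst control libraries of a replicate were left out together. Without replicate 1, the counts were 4 in polysomes and 4 in input for Nop60B RNAi over the germarial control (40.2% and 30.4% of all genes called), 6 and 7 relative to the cyst control (32.9% and 30.2%), and 2 and 1 between the controls (19.5% and 22.1%). Without replicate 2, they were 4 and 4 (39.4% and 30.5%), 4 and 2 (49.6% and 25.5%), and 5 and 4 (50.4% and 33.0%), and 3 members then differed between polysomes and input of the cyst control (33.8%). The share of all genes called was thus higher as well. A fit that leaves a group with 1 library assumes that this library varies like the others.

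With the replicate number as a block, no call of a member changed: gbb differed from the germarial control by 1.52 in polysomes and 1.76 in input (adjusted p of 0.0375 and 0.0332 with edgeR), and Dad at 1.90 and 2.29 (0.0332 and 0.0249). Library totals as the only scaling moved the median of all genes by 0.20 on the log2 scale in Nop60B RNAi against the germarial control in input, where 465 genes were then higher and 85 lower, against 294 and 123 with TMM. gbb and Dad were then at 1.96 and 2.48 and passed. Between the controls in input the split was 363 higher and 134 lower with library totals and 194 and 243 with the size factors of DESeq2, against 208 and 199 with TMM. DESeq2 called more genes: 1353 higher and 980 lower in Nop60B RNAi over the germarial control in polysomes and 1029 and 523 in input, 1055 and 1334 over the cyst control in polysomes and 857 and 787 in input, and 1148 and 660 between the controls in polysomes and 701 and 697 in input.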
